A study of Mus musculus with 12 samples.

Results

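The genes described here build and cross-link elastic fibres and collagen: Lox, Loxl1, Loxl2, Loxl4, Eln, Fbn1, Fbln2, Fbln5, Mfap4 and Mfap5. They were chosen by name, 10 of the 31870 symbols on the array, and all 10 were among the 19531 genes tested. Liver RNA came from mice lacking factor VII activating protease (FSAP-/-) and from their wild-type littermates (WT), both born to heterozygous parents on a BalbC background that had been backcrossed only up to F3. The mice were 20 to 30 weeks old and had either ligation of the common bile duct (BDL), which dams bile and scars the liver, or a sham operation. Livers were taken 2 weeks later and hybridised 1 mouse per array, with 3 mice in each of 4 groups: BDL FSAP-/-, sham FSAP-/-, BDL WT and sham WT. The labels give neither the sex of the mice nor the deleted part of the FSAP gene.

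Elastic fibres are laid down around a scaffold of fibrillin microfibrils. Elastin is guided onto that scaffold by fibulins and microfibril-associated proteins, and the copper-dependent lysyl oxidases then oxidise lysines so that elastin, and likewise fibrillar collagen, becomes covalently cross-linked. In the liver these proteins are found mainly around portal tracts and vessels, and in scars they are made by myofibroblasts that arise from stellate cells and portal fibroblasts.

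Across the 12 arrays, between 54.5% and 62.3% of spots were well above background, no spot was saturated, and the 75th percentile of the signal lay between 475 and 1202. Habp2, which encodes FSAP, stood between -7.18 and -6.95 in BDL FSAP-/- livers. In sham FSAP-/- livers it was at -3.45 in replicate 1, apart from -6.74 and -6.72 in replicates 2 and 3. The WT values were 4.97 to 5.15 in BDL WT and 5.37 to 5.50 in sham WT livers. These are levels, that is, log2 signals minus the array's own 75th percentile, the scale used throughout. The 12 arrays lay on 4 slides. Slide 1 held all sham WT arrays and BDL WT replicate 1. Slide 2 held BDL WT replicates 2 and 3 and sham FSAP-/- replicate 2. Slide 3 held all BDL FSAP-/- arrays and sham FSAP-/- replicate 3. Slide 4 held sham FSAP-/- replicate 1 alone. Y-linked signal was present on BDL FSAP-/- replicates 1 and 2 and sham FSAP-/- replicate 1 and on no WT array.

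Probe sequences are shown for Loxl1 and Loxl2, because each was read by more than 1 probe and the probes agreed only in part. Those printed hold an open reading frame over their full 60 bases, as far as the sequence alone tells. They come from the scanner files, and positions are on mm9. The brightest Loxl1 probe lay at chr9:58138570-58138629 and its second probe at chr9:58145451-58145510, both on the minus strand. The Loxl2 probes lay at chr14:70092141-70092200 and chr14:70090017-70090076, on the plus strand.
Loxl1 brightest probe: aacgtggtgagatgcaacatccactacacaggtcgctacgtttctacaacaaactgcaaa
Loxl1 second probe: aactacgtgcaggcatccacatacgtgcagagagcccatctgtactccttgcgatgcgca
Loxl2 second probe: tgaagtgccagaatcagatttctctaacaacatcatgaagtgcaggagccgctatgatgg
Loxl2 further probe: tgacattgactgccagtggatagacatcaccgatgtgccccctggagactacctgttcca

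Promoters are shown for Fbn1 and Fbln2, a fibrillin and a fibulin that rose after ligation in both genotypes (in WT not with slide as a block). The 250 bases before the annotated start are given, from RefSeq on GRCm38.p6, at chr2:125506439-125506688 (minus strand) for Fbn1 and chr6:91212514-91212763 (plus strand) for Fbln2. RefSeq promoters were at hand for 4 of the 10 genes, the others being Fbln5 and Loxl4. Capitals mark the GC box, searched as GGGCGG on both strands, which each of the pair holds 1 time.
Fbn1 promoter: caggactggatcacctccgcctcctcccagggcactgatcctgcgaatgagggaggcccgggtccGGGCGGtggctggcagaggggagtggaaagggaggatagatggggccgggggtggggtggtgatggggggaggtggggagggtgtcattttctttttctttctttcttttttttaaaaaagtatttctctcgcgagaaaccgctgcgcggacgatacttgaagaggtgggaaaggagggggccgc
Fbln2 promoter: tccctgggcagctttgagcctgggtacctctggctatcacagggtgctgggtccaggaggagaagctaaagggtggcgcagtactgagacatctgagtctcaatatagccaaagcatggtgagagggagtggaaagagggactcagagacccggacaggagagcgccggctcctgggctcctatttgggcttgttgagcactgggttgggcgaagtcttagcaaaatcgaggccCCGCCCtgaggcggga
The GC box occurs in 32.7% of 32851 promoters of the same 300-base window. TATAAA (12.4% of promoters), the AP-1 motif TGANTCA (6.75%), the TEAD motif GGAATG (12.6%), the palindromic SMAD motif GTCTAGAC (0.167%) and the CArG box (1.47%) were searched on both strands and found in none of the 4 genes' windows.

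Bile duct ligation was accompanied by higher levels of most of these genes in both genotypes. In FSAP-/- livers 8 of 10 rose and 0 fell, where 16.2% of all tested genes rose and 22.8% fell (limma, Benjamini-Hochberg threshold 0.05). All 10 changes were above 0, as were those of 39.7% of tested genes, and the median log2 change was 3.12 (8.70-fold), against -0.16 over all genes. In WT livers 6 of 10 rose and 0 fell, where 15.2% of all tested genes rose and 17.7% fell. All 10 changes were again above 0, as were those of 47.7% of tested genes, and the median log2 change was 1.80 (3.49-fold), against -0.03 over all genes. With genes not well above background in sham livers set at their bound, the medians were 2.37 in FSAP-/- and 0.87 in WT. Lox, Loxl4 and Mfap5, 3 of the 10, passed the filter on dim probes only through BDL arrays at the probe used, so their place among the tested genes is not independent of ligation. Every BDL array lay above every sham array for 8 genes in FSAP-/- livers, as for 18.9% of tested genes, and for 7 genes in WT livers, as for 24.2% of tested genes. In all, 5 genes rose in both genotypes (Loxl1, Loxl2, Eln, Fbn1 and Fbln2), as did 10.4% of tested genes. With slide as a block, the WT change rests on BDL WT replicate 1 alone against 3 sham WT arrays, and its median was 0.75. The FSAP-/- change then rests on 3 BDL arrays against sham FSAP-/- replicate 3 alone. Each block change given for a single gene after ligation is such a contrast, with 1 array in an arm. These are whole livers, where more cells of a type and more RNA per cell cannot be told apart.

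**Figure D1:**
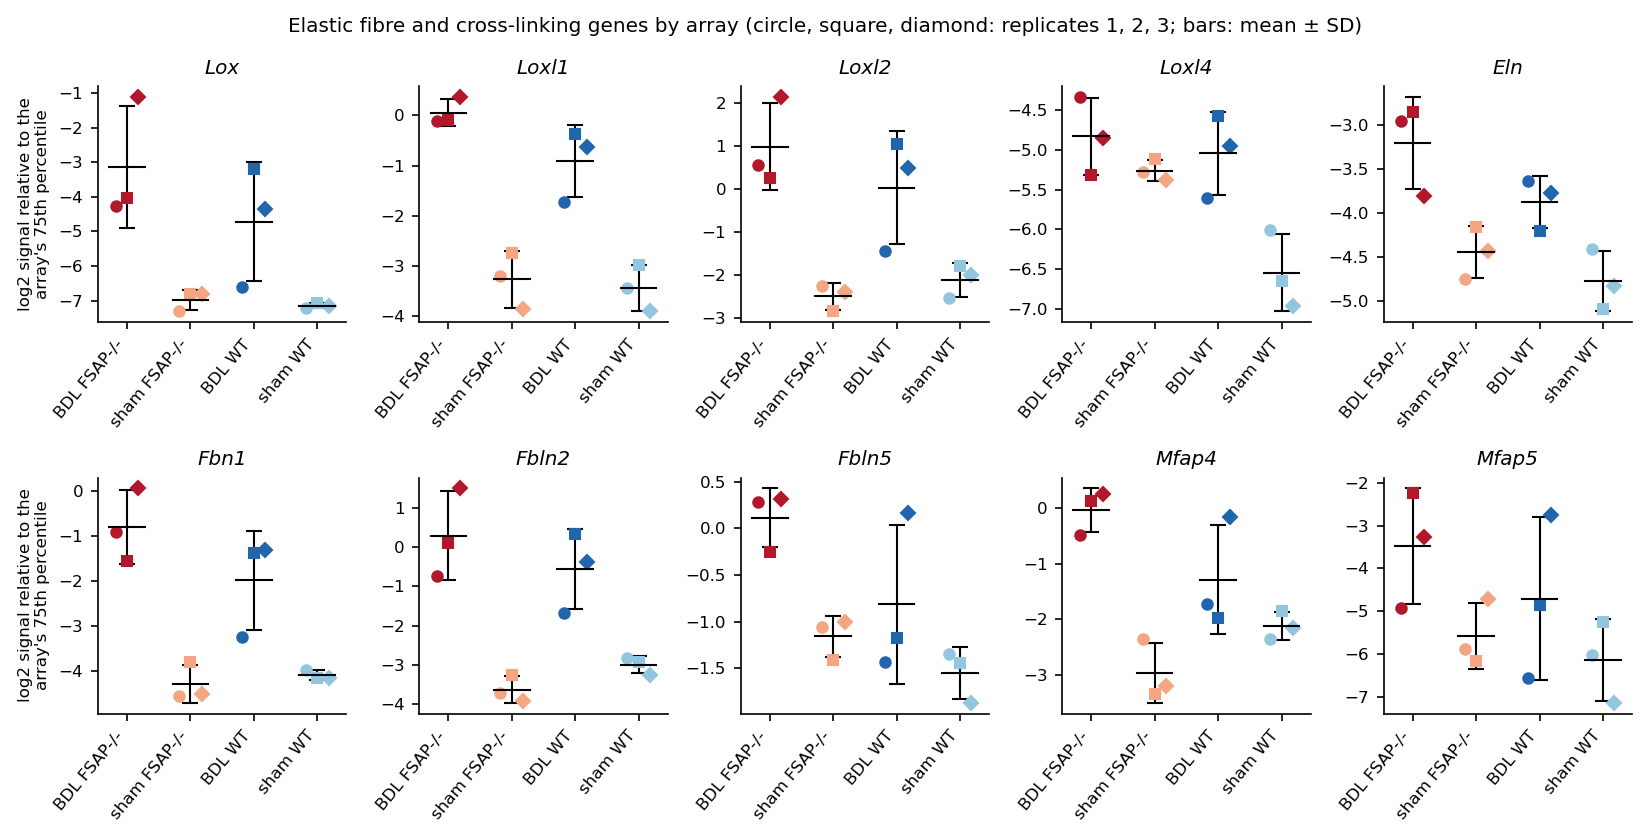
Level of each gene (log2 signal minus the array's 75th percentile, vertical axis) on each of 12 arrays in the 4 groups; symbols are replicates 1, 2 and 3, lines and bars mean ± SD. BDL arrays lie above sham arrays of the same genotype for 8 genes in FSAP-/- and 7 in WT livers, and BDL WT replicate 1 is the lowest of its group for 8 genes.

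Among the cross-linking enzymes Loxl1, the lysyl oxidase most closely tied to elastic fibre upkeep, had the smallest adjusted p in both genotypes. Its level was -0.11, -0.10 and 0.37 in BDL FSAP-/- livers, against -3.19, -2.73 and -3.86 in sham FSAP-/- livers. It was -1.72, -0.37 and -0.63 in BDL WT livers, against -3.43, -2.97 and -3.90 in sham WT livers. In both genotypes every BDL array lay above every sham array. Loxl1 rose 9.95-fold in FSAP-/- (log2 change 3.31, SE 0.39, limma adjusted p = 0.0001268) and 5.76-fold in WT (2.53, SE 0.39, limma adjusted p = 0.0007484). Its second probe, tested among 24235 probes, rose too, by 2.32 (SE 0.31) in FSAP-/- and 2.15 (SE 0.31) in WT.

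Loxl2, a lysyl oxidase-like enzyme that cross-links collagen IV and is studied in liver scarring, was read by 4 probes bearing its name. At the brightest (chr14:70095254-70095313) its level was 0.55, 0.26 and 2.14 in BDL FSAP-/- livers, against -2.25, -2.84 and -2.38 in sham FSAP-/- livers. It was -1.45, 1.05 and 0.49 in BDL WT livers, against -2.54, -1.78 and -2.0 in sham WT livers. The BDL arrays were higher without overlap in both genotypes, with the first BDL WT array only just above the sham arrays. Loxl2 rose 11.1-fold in FSAP-/- (3.47, SE 0.62, limma adjusted p = 0.001517) and 4.41-fold in WT (2.14, SE 0.62, limma adjusted p = 0.0225). The WT call ended when any 1 of 4 arrays was left out, with the change then between 1.63 (without BDL WT replicate 2) and 2.19 (without sham WT replicate 3). The others were sham WT replicate 1 (1.92) and BDL WT replicate 3 (1.91), and with slide as a block the change was 0.66 (limma adjusted p = 0.5664).

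The Loxl2 probes differed in the size of the change. The second probe printed above rose by 3.78 (SE 0.65, limma adjusted p = 0.00119) in FSAP-/- and 2.56 (SE 0.65, limma adjusted p = 0.01194) in WT livers. The further probe rose by 1.18 (SE 0.33, limma adjusted p = 0.01647) in FSAP-/- and by 1.15 (SE 0.33, limma adjusted p = 0.02114) in WT. The probe at chr2:71475085-71475144, placed by the files on another chromosome than the other 3, stood at -0.50 (limma adjusted p = 0.1363) in FSAP-/- and -0.16 (limma adjusted p = 0.6773) in WT. This probe-by-probe test was chosen after the values were seen.

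**Figure D2:**
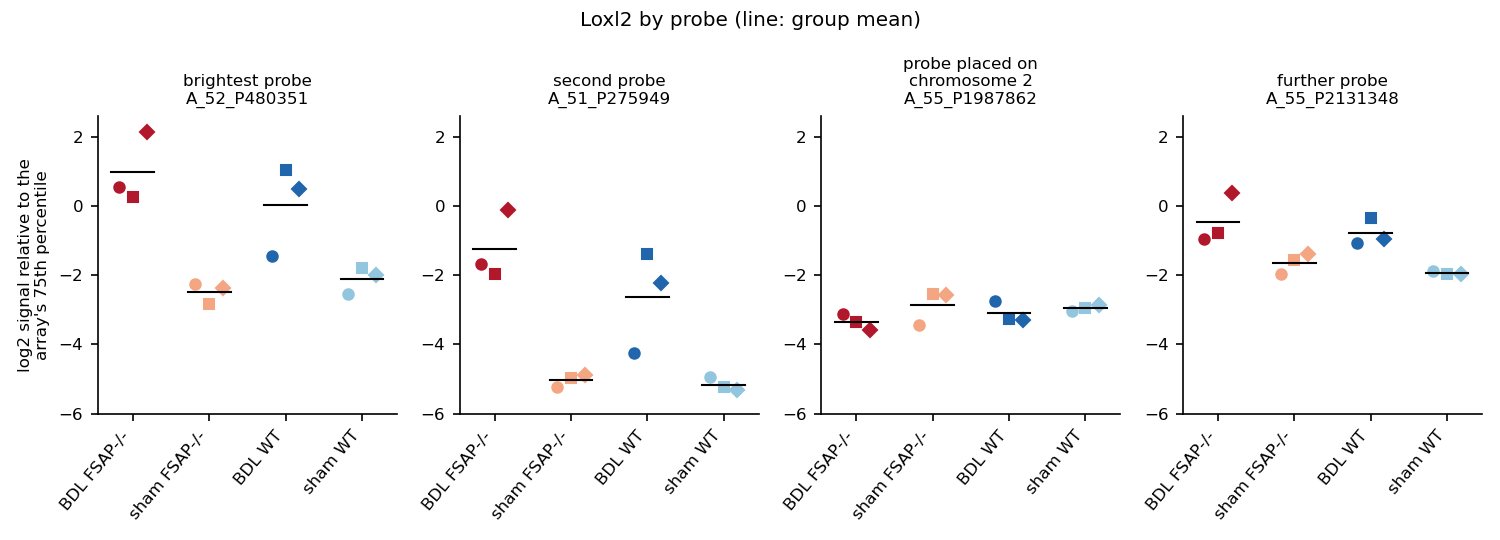
Level of Loxl2 at its 4 probes (log2 signal minus the array's 75th percentile, vertical axis) in the 4 groups; symbols are replicates 1, 2 and 3 and lines group means. The 3 probes on chromosome 14 are higher in BDL than in sham livers, by 3.47, 3.78 and 1.18 in FSAP-/-, and the probe on chromosome 2 is not (-0.50).

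Lox, the founding lysyl oxidase, was dim. Its brightest probe, on chromosome 18, was well above background on 3 BDL FSAP-/- and 2 BDL WT arrays and on no sham array. Its level was -4.28, -4.03 and -1.11 in BDL FSAP-/- livers, against -7.31, -6.81 and -6.82 in sham FSAP-/- livers. It was -6.60, -3.21 and -4.34 in BDL WT livers, against -7.21, -7.07 and -7.16 in sham WT livers. The groups did not overlap in either genotype, and 1 array in each BDL group stood well away from the other 2. A second Lox probe was well above background on 2 arrays and was not tested. Its mean was -4.28 in BDL FSAP-/- against -6.81 in sham FSAP-/- livers, and -5.46 in BDL WT against -6.74 in sham WT livers. Lox rose in FSAP-/- livers, to a level at least 3.49-fold higher than in sham (fitted log2 change 3.84, SE 0.89, limma adjusted p = 0.006138). That bound was 1.73-fold without BDL FSAP-/- replicate 3, and the call ended with normexp background correction (1.03, limma adjusted p = 0.06345) and with slide as a block (3.68, limma adjusted p = 0.05152). In WT it was at least 1.17-fold higher after BDL, a bound that was lost without BDL WT replicate 2, and did not pass (2.43, SE 0.89, limma adjusted p = 0.05665), though it passed without BDL WT replicate 1 (3.38, limma adjusted p = 0.01048). Such "at least" folds set the BDL mean against the lowest signal counted as well above background on the sham arrays, where that was brighter than the probe. They allow for background and not for the spread between mice.

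Loxl4, a further family member, followed another pattern. Its brightest probe (chr19:42668733-42668792) was at -4.33, -5.31 and -4.85 in BDL FSAP-/- livers, against -5.28, -5.12 and -5.38 in sham FSAP-/- livers. It was at -5.60, -4.57 and -4.95 in BDL WT livers, against -6.01, -6.65 and -6.97 in sham WT livers. The FSAP-/- groups overlapped and the WT groups did not. The WT change passed (1.5, SE 0.33, limma adjusted p = 0.005233), but the sham WT arrays were not well above background and no fold can be given, and the change was -0.01 with normexp and 0.94 with slide as a block (limma adjusted p = 0.1977). In FSAP-/- it stood at 0.43 (SE 0.33, limma adjusted p = 0.33). The second Loxl4 probe passed in neither genotype, at 0.94 in FSAP-/- (limma adjusted p = 0.3204) and 1.25 in WT (limma adjusted p = 0.2009). Loxl4 and Habp2 both lie on chromosome 19, 13.7 Mb apart on mm9.

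Eln, elastin itself, rose in both genotypes, by a smaller fitted amount than fibrillin 1. Its level (chr5:135179129-135179188) was -2.95, -2.85 and -3.81 in BDL FSAP-/- livers, against -4.75, -4.16 and -4.43 in sham FSAP-/- livers. It was -3.64, -4.21 and -3.77 in BDL WT livers, against -4.41, -5.09 and -4.83 in sham WT livers. The groups did not overlap in either genotype, and the array highest for 7 of the genes, BDL FSAP-/- replicate 3, was the lowest of its group for Eln. Elastin rose 2.36-fold in FSAP-/- (1.24, SE 0.29, limma adjusted p = 0.006317), a call that ended with normexp (0.32, limma adjusted p = 0.2541) and with slide as a block (1.22, limma adjusted p = 0.07832). It rose 1.87-fold in WT livers (0.90, SE 0.29, limma adjusted p = 0.034). The WT call ended under 11 of 25 alternatives, among them normexp (0.16, limma adjusted p = 0.6116), slide as a block (1.14), median scaling (0.75), quantile normalization (0.76) and leaving out sham WT replicate 2 (0.74), sham WT replicate 3 (0.87), BDL WT replicate 1 (0.78) or BDL WT replicate 3 (0.85).

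Fbn1, fibrillin 1, forms the microfibril backbone and holds latent TGF-beta in the matrix. Its level (chr2:125126727-125126786) was -0.91, -1.56 and 0.06 in BDL FSAP-/- livers, against -4.55, -3.80 and -4.49 in sham FSAP-/- livers. It was -3.24, -1.38 and -1.31 in BDL WT livers, against -3.96, -4.15 and -4.14 in sham WT livers. Both BDL groups lay wholly above their sham groups. Fbn1 rose 11.1-fold in FSAP-/- (3.47, SE 0.52, limma adjusted p = 0.0004995) and 4.30-fold in WT (2.10, SE 0.52, limma adjusted p = 0.01003), and the WT change was 0.84 with slide as a block (limma adjusted p = 0.3084). It is the gene whose promoter is printed above together with that of Fbln2.

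Fbln2, fibulin 2, binds fibrillin and elastin and is a marker of portal fibroblasts in liver. Its level (chr6:91222118-91222177) was -0.73, 0.12 and 1.51 in BDL FSAP-/- livers, against -3.71, -3.26 and -3.93 in sham FSAP-/- livers. It was -1.67, 0.35 and -0.37 in BDL WT livers, against -2.83, -2.92 and -3.25 in sham WT livers. Again no BDL array reached down to a sham array of its genotype. Fbln2 rose 15.3-fold in FSAP-/- (3.93, SE 0.57, limma adjusted p = 0.0004203) and 5.43-fold in WT (2.44, SE 0.57, limma adjusted p = 0.007629), and the WT change was 1.33 with slide as a block (limma adjusted p = 0.2576).

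Fbln5, fibulin 5, tethers elastin to microfibrils and to cell integrins. Its level (chr12:102988153-102988212) was 0.28, -0.25 and 0.31 in BDL FSAP-/- livers, against -1.06, -1.41 and -1.0 in sham FSAP-/- livers. It was -1.43, -1.17 and 0.16 in BDL WT livers, against -1.35, -1.44 and -1.87 in sham WT livers. The FSAP-/- groups did not overlap, and the WT groups did. A second Fbln5 probe was well above background on no array and was not tested. Fbln5 rose 2.42-fold in FSAP-/- (1.27, SE 0.36, limma adjusted p = 0.01753) and stood at 0.74 in WT (SE 0.36, limma adjusted p = 0.1413). The FSAP-/- call ended without sham FSAP-/- replicate 2 (1.15), BDL FSAP-/- replicate 1 (1.19) or BDL FSAP-/- replicate 3 (1.17), and with slide as a block (1.11).

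Mfap4 and Mfap5 encode microfibril-associated proteins, the first a fibrinogen-related protein of elastic fibres and the second a small glycoprotein that binds fibrillin. Mfap4 (chr11:61302147-61302206) was at -0.49, 0.12 and 0.25 in BDL FSAP-/- livers, against -2.35, -3.34 and -3.21 in sham FSAP-/- livers. It was at -1.72, -1.97 and -0.17 in BDL WT livers, against -2.35, -1.86 and -2.15 in sham WT livers. The FSAP-/- groups were wide apart, and in WT only BDL replicate 3 stood well clear of the sham arrays. Mfap4 rose 7.61-fold in FSAP-/- (2.93, SE 0.44, limma adjusted p = 0.0005303) and stood at 0.83 in WT (SE 0.44, limma adjusted p = 0.1726). Mfap5 (chr6:122478591-122478650) was at -4.91, -2.25 and -3.26 in BDL FSAP-/- livers, against -5.87, -6.15 and -4.70 in sham FSAP-/- livers. It was at -6.54, -4.84 and -2.75 in BDL WT livers, against -6.02, -5.24 and -7.13 in sham WT livers. It was well above background on 3 BDL FSAP-/- and 2 BDL WT arrays and no sham array, the groups overlapped in both genotypes, and neither change passed. Set against background on the sham arrays, its BDL mean was at least 2.77-fold higher in FSAP-/- (fitted log2 change 2.10, SE 0.93, limma adjusted p = 0.099). It was at least 1.18-fold higher in WT (1.42, SE 0.93, limma adjusted p = 0.2734). These bounds do not allow for the spread between mice, and the FSAP-/- bound was 1.81-fold without BDL FSAP-/- replicate 2. The FSAP-/- change passed without BDL FSAP-/- replicate 1 (2.82, limma adjusted p = 0.04753), and the WT bound was lost without BDL WT replicate 3.

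**Figure D3:**
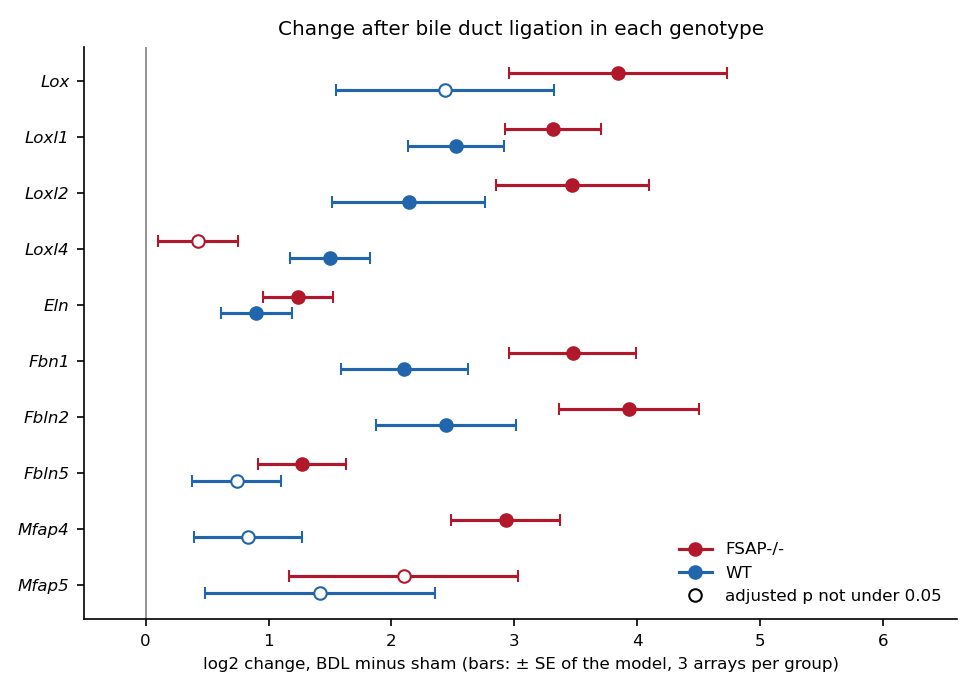
Log2 change after bile duct ligation, BDL minus sham (horizontal axis), for each gene in FSAP-/- and WT livers, with bars of ± SE of the limma model (3 arrays per group) and open points where the adjusted p was not under 0.05. The fitted change is larger in FSAP-/- for 9 of 10 genes, all but Loxl4, and no difference between the genotypes passed the test.

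The genes did not keep to a common size of change on every array. Set against the sham WT mean of each gene, the median of the 10 was 2.24, 2.45 and 3.33 in BDL FSAP-/- livers, against -0.06, 0.21 and 0.03 in sham FSAP-/- livers. It was 0.75, 2.34 and 2.62 in BDL WT livers, against 0.12, 0.10 and -0.15 in sham WT livers. BDL WT replicate 1 thus stood closer to the sham arrays than the other 2 of its group, and it was the lowest of them for 8 of 10 genes, by 2.83 for Lox and 2.23 for Loxl2 below the mean of the others. Elastin went the other way on that array, 0.35 above the other 2. Col1a1, the main collagen I chain, was at 0.85 on the same array, against 2.75 and 2.97 on the other BDL WT arrays. On BDL FSAP-/- replicate 3 the genes' median and Col1a1 (4.92) were both the highest of all arrays.

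**Figure D4:**
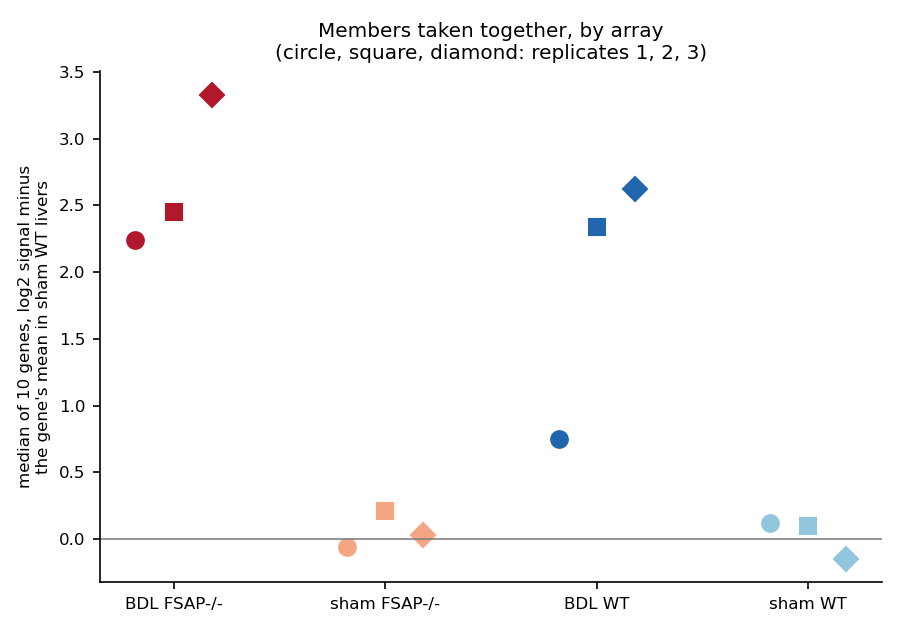
Median over the 10 genes of the log2 signal minus the gene's sham WT mean (vertical axis), by array; symbols are replicates 1, 2 and 3. BDL arrays lie between 0.75 and 3.33 and sham arrays between -0.15 and 0.21, with BDL WT replicate 1 at 0.75.

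BDL WT replicate 1 was also the only BDL WT array on the slide of the sham WT arrays. Within that slide, which sets 1 BDL array against 3 sham arrays and assumes that the lone array varies like the others, the median change in WT was 0.75. Loxl1 stood at 1.71, Fbln2 at 1.33, Fbn1 at 0.84, Lox at 0.55, Loxl2 at 0.66, Loxl4 at 0.94, Eln at 1.14, Fbln5 at 0.12, Mfap4 at 0.40 and Mfap5 at -0.41. Without that array 6 of 10 genes rose in WT, with Lox in and Eln out, and the median was 2.54. Within slide 3, which sets 3 BDL FSAP-/- arrays against 1 sham FSAP-/- array, the median was 3.26, with all 10 changes above 0. The spread behind either value comes from 1 group alone, so the calls within a slide are not read here. With slide as a block the fitted changes were the same as within the slide, with medians of 3.26 in FSAP-/- and 0.75 in WT. The block is thus no separate check, and calls lost under it rest on 1 array in an arm. BDL WT replicate 1 also had the lowest 75th percentile of the signal (475) and the lowest share of spots well above background (54.5%) of all arrays. What part slide or signal strength has in the smaller change on that array was not tested.

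The series title names the question whether FSAP limits fibrosis, which the genotype comparison in ligated livers addresses. None of the 10 genes was called there, where 0.215% of all tested genes were called and 0.123% were called higher. All 10 levels were on average higher in BDL FSAP-/- than in BDL WT livers, as were those of 46.0% of tested genes, with a median difference of 0.96 (1.94-fold), against -0.03 over all genes. The limma adjusted p ran between 0.2663 (Mfap4) and 0.8489 (Loxl4), and 5 genes had an unadjusted p under 0.05, as had 12.9% of tested genes. Mfap4 differed by 1.25 (95% interval 0.28 to 2.22), Fbn1 by 1.17 (0.03 to 2.31) and Loxl1 by 0.96 (0.10 to 1.82). Only for Loxl1, at its brightest probe, did the BDL FSAP-/- arrays all lie above the BDL WT arrays, a pattern that 6.58% of tested genes showed. At the second Loxl1 probe these groups overlapped, and the difference was 0.62 (SE 0.31, limma adjusted p = 0.4368).

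The size of most of these differences depended on single arrays. Without BDL WT replicate 1 the median was 0.55, Loxl2 stood at 0.21 in place of 0.95, Fbln2 at 0.31 in place of 0.86, Lox at 0.63 in place of 1.57 and Loxl4 at -0.07 in place of 0.21. Mfap4 stood at 1.03 in place of 1.25, and elastin at 0.79 in place of 0.67. BDL FSAP-/- replicate 3 mattered as well. Without it Lox stood at 0.56 and Fbln2 at 0.26, the lowest of their values with 1 array left out. Fbln5 passed only without BDL WT replicate 3 (1.42, limma adjusted p = 0.04209, against 0.93 with all arrays). None of the genes in the following marker and matrix lists was called either. Above 0 were 7 of 7 fibrillar collagens (median 1.32), 14 of 20 elastic fibre partners (0.42) and 13 of 23 collagen-modifying genes (0.06). So were 5 of 11 elastin-degrading proteases (-0.02) and 2 of 11 copper supply genes (-0.07). Of markers, 7 of 7 myofibroblast (1.0), 6 of 7 mesothelial (0.86), 7 of 8 portal fibroblast (0.51) and 8 of 10 stellate cell markers (0.32) were above 0. The same held for 6 of 7 macrophage (0.45), 5 of 7 cholangiocyte (0.39), 3 of 7 endothelial (-0.21) and 1 of 7 hepatocyte markers (-0.44). Their part in the differences of the 10 genes was not tested. No slide held both genotypes after the same surgery, so there is no value within a slide. With slide as a block 8 of the 10 were above 0 (Loxl2 at -0.26 and Mfap5 at -1.13 were not) and the median was 0.77. That difference runs through sham FSAP-/- replicate 3 on slide 3 and sham FSAP-/- replicate 2 on slide 2, a single array at each step. With Y-linked signal as a term none passed and the median was 1.25.

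**Figure D5:**
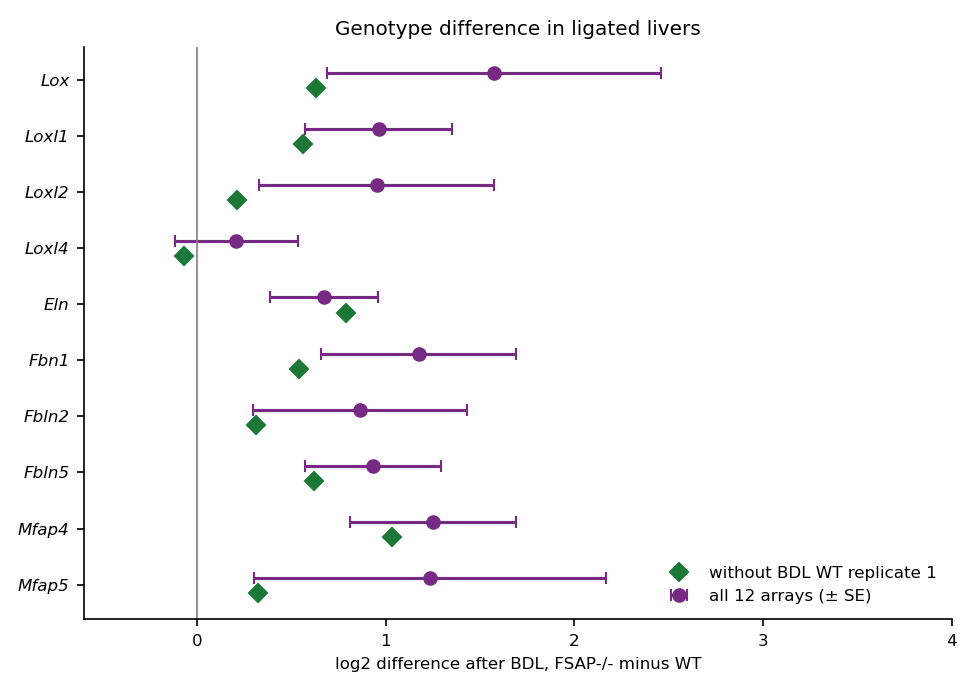
Log2 difference in ligated livers, FSAP-/- minus WT (horizontal axis), with all 12 arrays (circles, ± SE of the limma model) and without BDL WT replicate 1 (diamonds). All circles lie above 0, between 0.21 and 1.57, and without that array the values lie between -0.07 and 1.03.

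The interaction, which asks whether ligation changed a gene more in FSAP-/- than in WT livers, was called for none of the 10 genes and for 0.0102% of all tested genes. It was above 0 for 9 genes, as for 42.6% of tested genes, with a median of 1.06 against -0.08 over all genes. At an unadjusted p under 0.05 there were 2 genes, as there were 13.7% of tested genes. Mfap4 was the larger (2.09, SE 0.62, 95% interval 0.72 to 3.47, limma adjusted p = 0.1808), and Loxl4 stood at -1.08 (SE 0.46, limma adjusted p = 0.3413), at a probe well above background on 3 of 12 arrays and no sham array, and at -0.10 with normexp. Without BDL WT replicate 1 the median was 0.46 and Mfap4 stood at 1.88.

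In sham livers, none of the 10 genes was called between genotypes, where 0.0154% of tested genes were called. The differences lay between -0.84 (Mfap4) and 1.28 (Loxl4), with a median of 0.17, and 6 were above 0, as were 56.0% of tested genes. Loxl4 was the gene with an unadjusted p under 0.05, as were 7.87% of tested genes. Its sham FSAP-/- arrays all lay above the sham WT arrays (limma adjusted p = 0.2937), but no fold can be given since its probe was well above background on no sham array of either genotype, and with normexp the difference was 0.11. Fbln2 also did not overlap, in the other direction, at -0.63 (limma adjusted p = 0.8656). The sham groups did not overlap, either way, for 17.1% of tested genes. With slide as a block the median was -1.74 and 2 of 10 were above 0. No slide held sham arrays of both genotypes, so that difference runs through the BDL WT arrays. It rests on sham FSAP-/- replicate 2 on slide 2 and BDL WT replicate 1 on slide 1, a single array at each step.

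Partners of the elastic fibre were read from a list of 21 genes, 20 of them tested. The counts of this list and the next ones stand against 16.2% of tested genes that rose and 22.8% that fell in FSAP-/-, and 15.2% that rose and 17.7% that fell in WT. In FSAP-/- livers 11 rose and 1 fell (median change 1.06), and in WT livers 8 rose and 1 fell (median change 0.84). Ltbp2, a fibrillin-binding protein related to the latent TGF-beta binding proteins, rose 15.6-fold in FSAP-/- and 4.97-fold in WT. Mfap2, a microfibril glycoprotein close to Mfap5, rose 6.87-fold in FSAP-/- and 4.19-fold in WT, and Emilin2, an elastin interface protein, 5.54-fold in FSAP-/- and 4.62-fold in WT. Fbln1, which lies within elastic fibres, rose 7.99-fold in FSAP-/- and stood at 0.97 in WT (limma adjusted p = 0.2391). Adamtsl2, a fibrillin-binding regulator of TGF-beta, rose 4.12-fold in FSAP-/- and 7.46-fold in WT. Loxl3, the lysyl oxidase outside the 10, stood at -0.08 in FSAP-/- and -0.45 in WT and passed in neither. Ltbp4, which helps elastin assembly, stood at -0.30 in FSAP-/- (limma adjusted p = 0.3905) and fell by 0.77 in WT (limma adjusted p = 0.04025).

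Enzymes that modify, fold and trim collagen rose in 13 and fell in 3 of 23 tested genes in FSAP-/- livers, and rose in 11 and fell in 1 in WT livers. Plod2, the lysyl hydroxylase that prepares collagen telopeptides for cross-linking, was at least 7.76-fold higher in FSAP-/- (limma adjusted p = 0.002556) and at least 3.50-fold higher in WT (limma adjusted p = 0.03834). Fkbp10, a chaperone that acts with it, rose 8.70-fold in FSAP-/- and 3.97-fold in WT. Tgm2, a transglutaminase that cross-links matrix by another chemistry, rose 3.19-fold in FSAP-/- and 4.86-fold in WT. Bmp1, which cleaves procollagen and activates lysyl oxidase, fell by 0.58 in FSAP-/- (limma adjusted p = 0.0371) and stood at -0.01 in WT. Of 7 fibrillar collagens tested, the substrates of these enzymes, 6 rose in FSAP-/- and 4 in WT. Col1a1 rose 55.1-fold in FSAP-/- and 15.4-fold in WT, and Col3a1 25.3-fold in FSAP-/- and 5.80-fold in WT.

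Elastin-degrading proteases rose in 8 of 11 genes in FSAP-/- and 9 of 11 in WT livers, and none fell. Mmp2, a gelatinase, rose 8.54-fold in FSAP-/- and 8.0-fold in WT, and Prtn3, a neutrophil serine protease, 10.2-fold in FSAP-/- and 15.1-fold in WT. Mmp12, the macrophage elastase, was at least 2.03-fold higher in FSAP-/- and at least 1.22-fold higher in WT. Elastase inhibitors rose in 6 and fell in 3 of 11 genes in FSAP-/-, and rose in 3 and fell in 1 in WT. Slpi, an inhibitor of neutrophil elastase, rose 22.3-fold in FSAP-/- and 17.7-fold in WT. Receptors that bind elastin or fibulins rose in 5 of 10 in FSAP-/- and 4 of 10 in WT, among them Lgals3, a galectin that also binds elastin fragments (12.4-fold in FSAP-/- and 6.49-fold in WT). Copper supply, which lysyl oxidases need, showed 1 rise and 3 falls of 11 in FSAP-/- and 2 rises and 3 falls in WT, shares near those of all tested genes. Atp7a, the pump that loads copper onto secreted enzymes, rose 1.93-fold in FSAP-/- and 1.74-fold in WT, and the copper importer Slc31a1 fell by 1.37 on the log2 scale in FSAP-/- and by 1.43 in WT. No gene of these 7 lists was called in either genotype comparison or in the interaction.

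Markers of several cell types moved with ligation. Of 7 myofibroblast markers, 6 rose in FSAP-/- and 3 in WT, and their summed signal, relative to the array's 75th percentile, was 24.4 to 95.6 in BDL FSAP-/- against 3.24 to 4.43 in sham FSAP-/- livers and 10.9 to 27.6 in BDL WT against 4.29 to 6.25 in sham WT livers. Timp1 and Col1a1 together held 45.9% to 79.7% of that sum in BDL FSAP-/- livers and 30.6% to 72.7% in BDL WT livers. Acta2, the actin of myofibroblasts, rose 12.1-fold in FSAP-/- and stood at 0.72 in WT (limma adjusted p = 0.3374), and its sham FSAP-/- minus sham WT difference was -1.41 (limma adjusted p = 0.5331). Of 8 portal fibroblast markers tested, 7 rose in FSAP-/- and 3 in WT, with sums of 20.0 to 35.5 in BDL FSAP-/- against 7.50 to 20.8 in sham FSAP-/- and 26.9 to 31.8 in BDL WT against 16.7 to 28.4 in sham WT livers. Gas6, called in neither genotype, held 57.6% to 90.9% of that sum across the 12 arrays, and Gli1 stayed near background on all 12 arrays. Stellate cell markers rose in 3 and fell in 1 of 10 in FSAP-/- and rose in 2 and fell in 1 in WT. Mesothelial markers rose in 6 of 7 in FSAP-/- and 4 of 7 in WT, and smooth muscle markers in 3 of 3 tested in FSAP-/- and 0 in WT. All 3 smooth muscle markers lay lower in sham FSAP-/- than in sham WT livers, with none called. Cnn1 and Actg2 were not well above background in sham FSAP-/- livers. Set against background there, their sham WT means were at least 3.79-fold and 2.56-fold higher, and the Smtn difference was -0.02. In each genotype 6 of the 7 cholangiocyte markers rose and 1 fell, with sums of 10.4 to 42.3 in BDL FSAP-/- against 0.95 to 1.23 in sham FSAP-/- and 11.9 to 15.3 in BDL WT against 1.30 to 1.42 in sham WT livers. Macrophage markers rose in 7 of 7 in FSAP-/- and 6 of 7 in WT, and endothelial markers in 3 of 7 in each. Of 6 adipose markers, 3 were tested, 1 rose and 1 fell in FSAP-/- and 0 passed in WT, and Adipoq, Plin1 and Cfd stayed near background on all 12 arrays. Hepatocyte markers, which define the organ, were each well above background on at least 1 array of every group and fell in 4 of 7 in FSAP-/- and 1 of 7 in WT, with sums of 943 to 1480 in BDL FSAP-/- against 1960 to 2000 in sham FSAP-/- and 1240 to 1700 in BDL WT against 1760 to 1900 in sham WT livers. What part these cell types have in the changes of the 10 genes was not tested.

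Likeness of pattern was measured as the mean absolute difference over the 12 arrays after each gene was centred on its own mean, across 15863 genes, as a description with no test. Loxl1 lay closest to Mmp2 (0.24 on the log2 scale) and Mfap2 (0.25), and Loxl2 to Fstl1 (0.28), Fkbp10 (0.31) and Plod2 (0.32). Fbn1 lay closest to Siglecf (0.18) and Fkbp10 (0.22), Lox to Tnfaip6 (0.29), Eln to Lrch4 (0.16), Fbln5 to Dact3 (0.21) and Fbln2 to Alox5 (0.28). Mfap4 (Prss23, 0.34) and Mfap5 (Ephx4, 0.53) had the most distant nearest genes. Among the 10, Fbn1 and Loxl2 were the closest pair (0.35), and the nearest of the 10 to Eln was Fbln5 (0.45).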

How the data were processed

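Liver RNA of 12 mice was measured on Agilent one-colour arrays. Per the file headers, the deposited intensity of each spot came from Agilent Feature Extraction 10.5.1.1 (protocol GE1_105_Jan09, mm9) and was background-subtracted, not scaled between arrays. The authors' deposited log2 values served as an alternative. Here the processed signal was taken to log2 and each array set to its own 75th percentile. Spots of a probe were averaged without the 98 to 193 spots per array marked as outliers, and each symbol was read at its brightest probe. Sham FSAP-/- replicate 1, re-saved without most gene names, was named through shared probe identifiers. Genes that cleared background (well above it) on 3 or more of 12 arrays were tested with limma 3.58.1 (R 4.3.3): 4 group means, 5 contrasts, two-sided, Benjamini-Hochberg at 0.05 over 19531 genes. P-values rest on the spread between mice within groups, pooled over all 4 groups and drawn towards that of other genes. Having 3 mice per group limits precision. The fit was tested on simulated data for the ligation changes, with 200 of 19531 genes changed by several amounts. Of those changed by 2 on the log2 scale, at least 84% were recovered. Each simulated gene had the same spread in every group. The genotype comparisons and the interaction were not simulated, so that share does not apply to them. The genes and lists were chosen with earlier results of these data known. All 10 genes were described; from each list the 4 largest called changes, and some named ones, could be given. Alternatives covered background, scaling, filter, probe, slide, replicate number, samples in the fit, Y-linked signal, variance model and each array left out.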

Additional observations from a re-analysis of the deposited data

How the results depend on the processing

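Among 1205 values of single genes under alternatives, 1164 stayed on their side of the threshold (16 of these turned sign while not called), 34 lost it, 6 gained it and 1 reversed: Loxl4 in WT, at -0.01 with normexp. With normexp the median change was 1.59 in FSAP-/- and 0.65 in WT, and genotype calls over all genes were 147 after BDL and 13 for the interaction. With the mean of all probes the FSAP-/- median was 2.46. With slide as a block, 5 genes rose in FSAP-/- and 1 in WT (median 0.75), all calls were 4150 and 3286, 2 after BDL between genotypes, and the medians were -1.74 in sham and 2.45 for the interaction. Within slide 3, 3 genes and 1141 in all passed in FSAP-/-, and within slide 1, 3 in WT (median 0.75), each with 1 array in an arm. All calls between genotypes after BDL, 42 in the main analysis, were 67 with quantile normalization, 6 with no filter, 69 with a filter on every array of a group, 3 with only the 2 groups compared, 19 with Y-linked signal as a term and 97 with trend and robust variance. The interaction, with 2 calls, had 0 with no filter, 368 with the Y-linked term and 4 with trend and robust variance, and sham had 1 with only the 2 groups compared. The causes were not tested.

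Replicate numbers are shared between groups, but same-numbered samples did not deviate together (18 correlations, -0.202 to 0.191, 2 over 0.1). With the replicate block 8 genes rose in FSAP-/- and 7 in WT (Lox gained, adjusted p = 0.04168), with 11 calls in all after BDL between genotypes and 0 for the interaction.

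With 1 of 12 arrays left out, 7 to 8 genes rose in FSAP-/- (median 2.80 to 3.29) and 4 to 7 in WT (1.56 to 2.54). Between genotypes after BDL 0 to 1 passed (0.55 to 1.30; 6 to 96 of all genes), in sham 0, and for the interaction 0 (0.46 to 1.58; 0 to 22 of all genes). Dim genes, Lox, Loxl4 and Mfap5, are limited by background.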
